A study of Danio rerio with 6 samples.

Results

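The genes described here are 6 transcription factor genes that provide competence for otic and epibranchial fate in the non-neural ectoderm of the zebrafish: dlx3b (ENSDARG00000014626), dlx4b (ENSDARG00000071560), foxi1 (ENSDARG00000104566), tfap2a (ENSDARG00000059279), tfap2c (ENSDARG00000040606) and gata3 (ENSDARG00000016526). They were chosen by name and gene ID for their role in otic competence, with no threshold on a measured value, and are 6 of the 32266 genes in the deposited count table. All 6 were measured in all 6 libraries and all 6 passed the filter on low counts.

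RNA was sequenced from cells sorted by flow cytometry for the red fluorescent reporter pax8:DsRed, which marks the nephric anlagen and the common progenitors of the ear and the epibranchial placodes (OEPD). The control group held 3 libraries from wild-type zebrafish embryos of the AB line, taken at early somite stages, that carried the reporter in heterozygous form. The other group held 3 libraries from embryos of the same kind that were injected with an antisense morpholino against atoh1b (atoh1b-MO), the gene for a proneural bHLH factor required for early-born hair cells. Replicates are numbered as in the sample titles, 1, 2 and 3 for the controls and 2, 4 and 5 for atoh1b-MO. The genotype entry of the 3 injected samples reads dlx3b/4b knockdown, whereas their titles and the series design name atoh1b. The titles were followed here. Dlx3b and dlx4b are among the genes described, and a morpholino that blocks translation need not change the level of its target RNA. Which label holds was not tested.

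The ear forms from ectoderm next to the hindbrain that must first become able to respond to Fgf signals. Dlx3b and Dlx4b are homeodomain factors encoded by neighbouring genes and act at the border of the neural plate. There they are required for otic induction together with Foxi1, a forkhead factor that drives pax8 expression in the OEPD. Tfap2a and Tfap2c are AP-2 factors of the non-neural ectoderm with overlapping roles in preplacodal competence and the neural crest, and Gata3 is a zinc finger factor of the same ectoderm that is also known from the ear, the pronephros and other tissues.

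The libraries held between 24120228 and 37169850 counts assigned to genes. Levels are given as CPM (counts scaled to library size, with TMM factors), or per kilobase of gene model as well (RPKM) where genes are compared with each other. The libraries were not alike in the levels of marker genes. In control 3 pax8, the gene whose reporter was used for sorting, stood at 16.6 CPM against 294 and 227 in controls 1 and 2, a level 15.6-fold lower than in those libraries. The summed level of 6 nephric markers was 73.6 CPM in control 3, 1428 to 1619 in controls 1 and 2 and 1101 to 1602 in the atoh1b-MO libraries. That of 5 epidermal markers was 5981 in control 3, 1208 and 4063 in controls 1 and 2 and 1333 to 2945 in atoh1b-MO. The study dismissed a diverging control that it did not name. Control 3 was taken to be that library from the values above, and the main comparison below uses controls 1 and 2 with the 3 atoh1b-MO libraries (5 libraries), with the comparison of all 6 libraries beside it.

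The 2 dlx genes lie side by side on chromosome 12. In the GRCz10 build the gene model of dlx3b spans chr12:5673443-5676963 on the plus strand and that of dlx4b spans chr12:5684659-5693798 on the minus strand, so that the genes face each other across 7695 bases. The foxi1 model lies on the same chromosome at chr12:43916243-43918010 on the minus strand. The model of tfap2a spans chr24:8581299-8592141 on the minus strand, that of tfap2c spans chr6:56157660-56195515 on the plus strand, and that of gata3 spans chr4:25065312-25075312 on the minus strand. No other gene model in the table overlaps any of these spans.

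Dlx3b was abundant in the sorted cells. It was read 2198, 5593 and 2983 times in controls 1, 2 and 3 and 2372, 1971 and 2136 times in atoh1b-MO 2, 4 and 5, which corresponded to 78.8, 149.8 and 108 CPM in the controls and 92.9, 79.8 and 70.4 CPM in atoh1b-MO. Control 2 was the highest of the 6 libraries and atoh1b-MO 5 the lowest, and control 1 lay within the range of the injected samples, so the groups overlapped. Its neighbour dlx4b was read 336, 737 and 511 times in the controls and 283, 331 and 330 times in atoh1b-MO, or 12.1, 19.7 and 18.5 CPM against 11.1, 13.4 and 10.9 CPM. Here too control 2 was highest, control 3 came next, and control 1 lay among the atoh1b-MO libraries.

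Foxi1 was read 386, 1245 and 671 times in the controls and 487, 448 and 594 times in atoh1b-MO. The corresponding levels were 13.8, 33.3 and 24.2 CPM in the controls and 19.1, 18.1 and 19.6 CPM in atoh1b-MO. The 3 injected samples lay close together, with a coefficient of variation of 3.86%, whereas the controls spread on both sides of them with a coefficient of variation of 41.0%. Before scaling, foxi1 was at 13.4 CPM in control 1 (95% Wilson interval 12.2 to 14.9) and at 33.5 CPM in control 2 (31.7 to 35.4). Over the 6 genes and 6 libraries the half-width of such an interval was 2.36% to 11.7% of the value, and these intervals cover counting error only.

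Tfap2a was the most even of the 6 genes. Its 4186, 6898 and 4539 counts in the controls and 4917, 3419 and 4657 counts in atoh1b-MO gave 150.2, 185 and 164 CPM against 193, 138 and 154 CPM. Both the highest and the lowest library belonged to the atoh1b-MO group, and the highest was 1.39-fold above the lowest. Gata3 had 2188, 3822 and 2226 counts in the controls and 2572, 1486 and 2061 in atoh1b-MO, or 78.5, 102 and 80.4 CPM against 101, 60.2 and 68.0 CPM. Control 2 and atoh1b-MO 2 were the highest for gata3, and atoh1b-MO 4 and 5 were below every control.

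Tfap2c varied far more than its paralog. It was read 1213, 3895 and 5084 times in the controls and 3525, 1177 and 1660 times in atoh1b-MO, which gave 43.5, 104 and 184 CPM against 138, 47.7 and 54.7 CPM. Control 3, atoh1b-MO 2 and control 2 were high and the remaining libraries were low, so that the split ran across both groups. The highest library was 4.22-fold above the lowest, compared with 2.41-fold for foxi1, 2.13-fold for dlx3b, 1.81-fold for dlx4b and 1.70-fold for gata3.

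**Figure D1:**
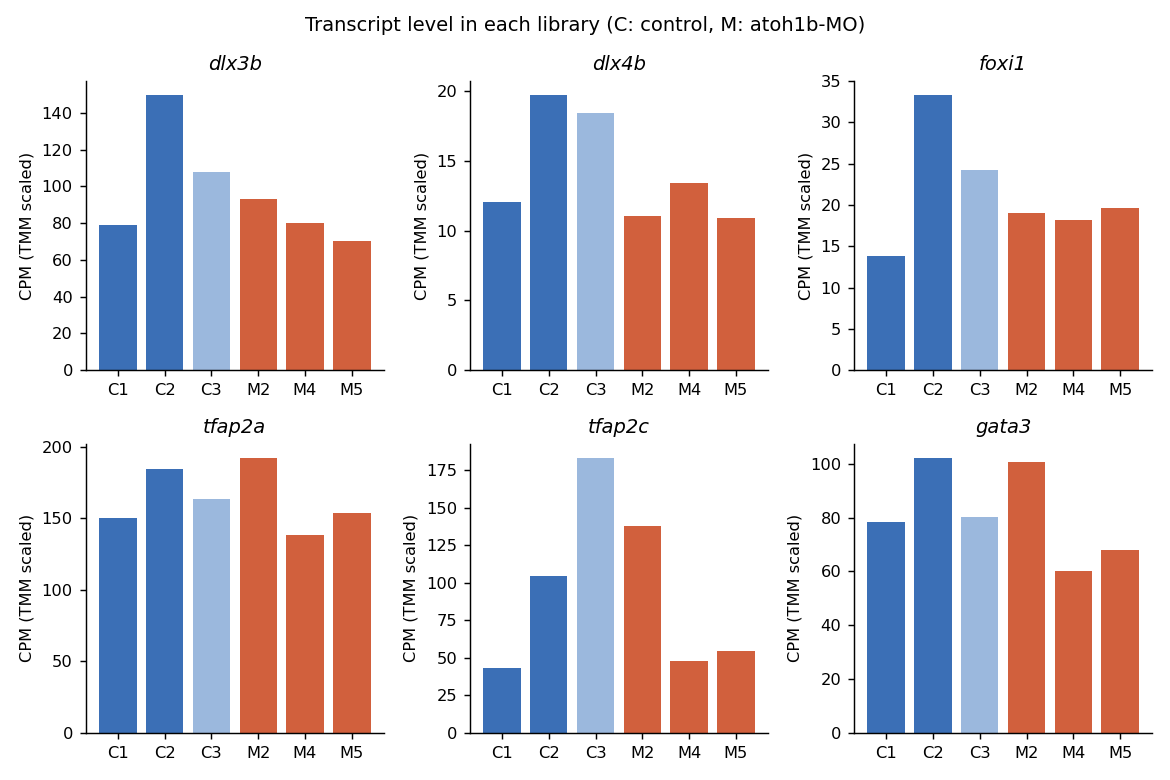
Level of each of the 6 genes in each library, in CPM after TMM scaling (bars from 0; dark blue, controls 1 and 2; light blue, control 3; orange, atoh1b-MO 2, 4 and 5). Control 2 is the highest library for dlx3b (149.8 CPM), dlx4b (19.7 CPM) and foxi1 (33.3 CPM), whereas tfap2c is highest in control 3 (184 CPM) and atoh1b-MO 2 (138 CPM).

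Per kilobase of gene model, dlx3b and tfap2a were the most abundant of the 6, at 60.7 ± 18.3 and 55.2 ± 7.06 RPKM (mean ± SD, n = 6 libraries). They were followed by gata3 at 26.8 ± 5.60, tfap2c at 18.7 ± 11.2, foxi1 at 13.1 ± 4.12 and dlx4b at 11.1 ± 2.99 RPKM. These mean levels were higher than those of 93.1% of tested genes for dlx3b and of 69.1% for dlx4b, the range of the 6. The order of neighbours did not hold in every library. Dlx3b was above tfap2a in 3 of 6 libraries, tfap2a above gata3 in 6 of 6, gata3 above tfap2c in 5 of 6, tfap2c above foxi1 in 4 of 6 and foxi1 above dlx4b in 5 of 6.

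The levels of paralogs were also compared within each library, where scaling between libraries cancels. Dlx3b exceeded dlx4b per base of gene model by 5.31-, 6.16- and 4.74-fold in controls 1, 2 and 3 and by 6.80-, 4.83- and 5.25-fold in atoh1b-MO 2, 4 and 5. The ratio thus stayed between 4.74 and 6.80 while dlx3b itself ranged over 2.13-fold. The log2 ratio was 2.52 ± 0.15 (SD, n = 2) in controls 1 and 2 and 2.48 ± 0.26 (SD, n = 3) in atoh1b-MO, a difference of -0.04 (two-sided exact permutation test, p = 1), and the difference was 0.05 with control 3 (exact permutation test, p = 0.7). The sign of a difference this small turned when single libraries were left out, with values from -0.18 (without atoh1b-MO 2) to 0.07 (without control 2) for 5 libraries and from -0.09 (without atoh1b-MO 2) to 0.15 (without atoh1b-MO 4) for 6.

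Tfap2a exceeded tfap2c by 5.91-, 3.03- and 1.53-fold per base in the controls and by 2.39-, 4.98- and 4.81-fold in atoh1b-MO. The AP-2 ratio was low in control 3, atoh1b-MO 2 and control 2, the libraries with much tfap2c. The groups overlapped, with a difference of the log2 ratio of -0.14 for 5 libraries (exact permutation test, p = 0.8) and 0.35 for 6 (exact permutation test, p = 0.7). With 3 against 3 libraries this test cannot give a p below 0.1, and with 2 against 3 its smallest possible p is higher still. Leaving out single libraries moved the difference from -0.62 (without control 2) to 0.34 (without control 1) with 5 libraries, and from -0.14 (without control 3) to 0.84 (without control 1) with 6.

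**Figure D2:**
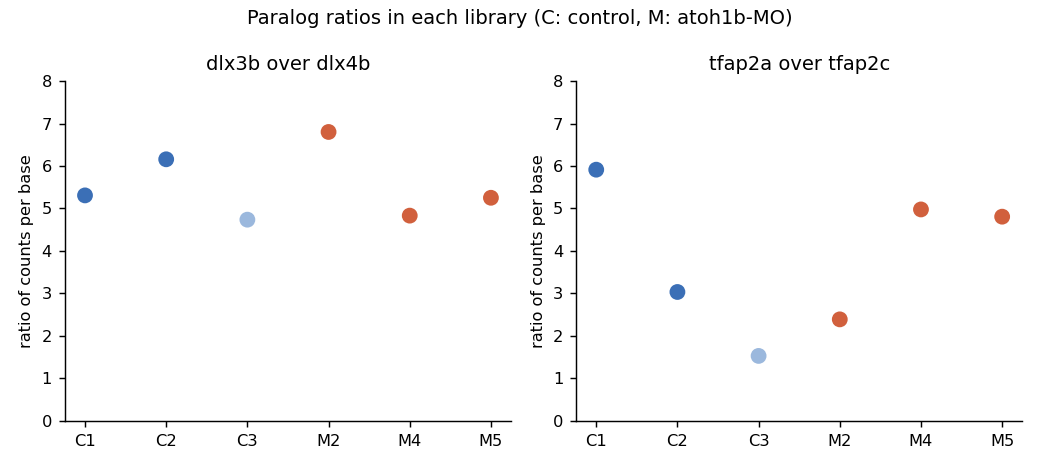
Ratio of dlx3b to dlx4b and of tfap2a to tfap2c in each library, as counts per base of gene model (C, control; M, atoh1b-MO; light blue, control 3; both axes start at 0). The dlx ratio lies between 4.74 and 6.80 in all 6 libraries, and the tfap2 ratio between 1.53 and 5.91.

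To ask whether depletion of Atoh1b changed the level of the competence factors, groups were compared with the quasi-likelihood test of edgeR across all genes, with a gene called at a Benjamini-Hochberg adjusted p below 0.1. None of the 6 genes was called with 5 libraries, where 110 of 18397 genes or 0.598% were called, and none with 6 libraries, where 0% of 17874 genes were called. With these settings none of the 6 had an unadjusted edgeR p below 0.05 in either comparison, against 11.2% of tested genes with 5 libraries and 5.82% with 6. DESeq2 and limma voom called none of them either, although dlx3b had an unadjusted DESeq2 p of 0.0373 with 5 libraries and dlx3b and dlx4b had unadjusted limma voom p-values of 0.0444 and 0.0399 with 6. In edgeR refits without the filter on low counts, dlx3b had an unadjusted p of 0.0108 with 5 libraries. With a term for the samples numbered 2, its unadjusted edgeR p was 0.0363 with 5 libraries and 0.0400 with 6. Tfap2c had an unadjusted edgeR p of 0.0111 with that term and 5 libraries. Some edgeR refits without 1 library also went below 0.05. In none of the 6 genes did the groups fail to overlap, against 30.1% of tested genes with 5 libraries and 13.3% with 6. The number called in the whole table depended on each library of the main comparison, being 13, 46, 260, 36 and 67 without control 1, control 2, atoh1b-MO 2, atoh1b-MO 4 and atoh1b-MO 5, and DESeq2 called 690.

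Most of the estimates lay below 0, and every interval included 0. Dlx3b had a log2 fold change of atoh1b-MO over control of -0.49 (SE 0.24, 95% interval -1.05 to 0.07, edgeR adjusted p = 0.513), and dlx4b one of -0.43 (SE 0.24, -0.97 to 0.12, edgeR adjusted p = 0.556). A decrease of dlx3b to 0.482 of the control level or an increase to 1.05 times that level lie at the ends of its interval. With control 3 the estimates were -0.46 (-1.02 to 0.10) for dlx3b and -0.50 (-1.02 to 0.03) for dlx4b, with an edgeR adjusted p of 0.848 for each. The unadjusted edgeR p of dlx4b was then 0.0592, the lowest of the 6 genes in either comparison with these settings.

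For foxi1 the log2 fold change was -0.32 (SE 0.31, -1.04 to 0.41, edgeR adjusted p = 0.761), and gata3 had -0.24 (SE 0.21, -0.74 to 0.25, edgeR adjusted p = 0.727). Tfap2a had the narrowest interval, with -0.05 (SE 0.15, -0.39 to 0.30, edgeR adjusted p = 0.936), so that its fold lay between 0.763 and 1.23. Tfap2c had the widest, with 0.12 (SE 0.50, -1.03 to 1.26, edgeR adjusted p = 0.955), and its sign turned with control 3, to -0.46 (SE 0.59, -1.87 to 0.96, edgeR adjusted p = 0.903). With 6 libraries the values of the others were -0.32 for foxi1, -0.04 for tfap2a and -0.19 for gata3. The median of the 6 genes was -0.28 with 5 libraries and -0.39 with 6, beside medians of 0.01 and -0.02 over all genes tested, and 5 of 6 and 6 of 6 estimates were below 0. In sorted bulk samples fewer cells of a type and less RNA per cell cannot be told apart, and the labels do not say whether replicates came from separate clutches, so the p-values measure only the spread between these libraries.

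**Figure D3:**
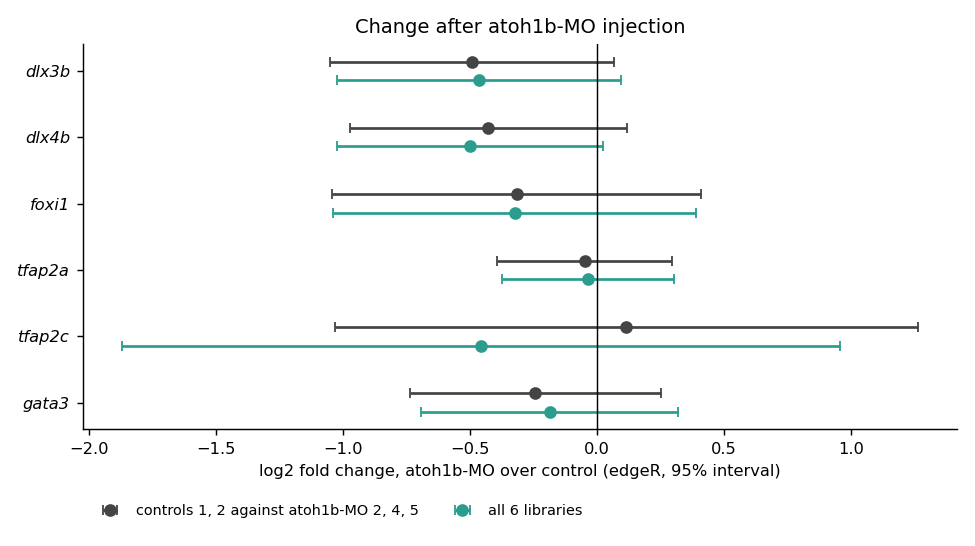
Log2 fold change of atoh1b-MO over control for the 6 genes (points) with 95% intervals (bars) from edgeR, for 5 libraries (black) and all 6 libraries (green). Every interval includes 0, and tfap2c has the widest, from -1.03 to 1.26 with 5 libraries.

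In the comparison of 5 libraries the negative values of dlx3b, dlx4b and foxi1 rested largely on control 2. Without control 2 the 5-library estimate of dlx3b was 0.03, that of dlx4b was -0.04 and that of foxi1 was 0.44, and those of tfap2a and tfap2c were 0.10 and 0.87. Without control 1 the estimate was -0.88 for dlx3b (edgeR adjusted p = 0.220), -0.74 for dlx4b and -0.81 for foxi1 (edgeR adjusted p = 0.331), and tfap2c turned to -0.38. The estimates of these genes thus moved by which of 2 controls stood for the wild type. Without atoh1b-MO 2, gata3 was at -0.49 (edgeR adjusted p = 0.207) and tfap2c at -0.52, and without atoh1b-MO 4 tfap2a was at 0.05. With 6 libraries and without control 2, dlx3b and dlx4b kept negative values of -0.20 and -0.36, foxi1 was at 0.00075 and tfap2a at 0.05, and tfap2a was at 0.06 without atoh1b-MO 4. None of these settings gave a call for any of the 6 genes.

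Controls 1 and 2 were also set against each other directly. Control 2 exceeded control 1 by 2.41-fold for foxi1, 2.40-fold for tfap2c, 1.90-fold for dlx3b and 1.64-fold for dlx4b. Of 12043 other genes with a mean count above 100, 2.78% differed at least as far as foxi1 between these 2 libraries in either direction, 2.80% as far as tfap2c, 4.67% as far as dlx3b and 6.83% as far as dlx4b. Tfap2a (1.23-fold, 24.6% of genes as far) and gata3 (1.30-fold, 17.6%) differed less. Epidermal markers moved the same way: krt4, a keratin of the surface epithelium, was at 825 CPM in control 1 and 2908 in control 2. Markers of the OEPD were mixed. Pax8, pax2a and fgf24 were at 294, 567 and 48.6 CPM in control 1 and 227, 566 and 40.7 CPM in control 2. Eya1, six1b, sox9a and sox3 were at 111, 38.0, 39.7 and 29.3 CPM in control 1 and 193, 67.8, 68.6 and 48.6 CPM in control 2. The part of epidermal or of OEPD cells in the higher levels of control 2 was not tested.

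Control 3 was also set against the other controls. Compared with the mean CPM of controls 1 and 2, 5 of the 6 genes differed by 1.16-fold or less in control 3: dlx3b at 0.942, dlx4b at 1.16, foxi1 at 1.03, tfap2a at 0.979 and gata3 at 0.889 of that level. Of 12043 genes with a mean count above 100, 83.4%, 61.8%, 92.9%, 94.5% and 68.6% differed at least as far, in that order of genes. The median absolute log2 difference over these genes was 0.304, so small distances were common. The mean of controls 1 and 2 lies between controls that themselves differed, and against each of them the distances were wider for some genes. Foxi1 in control 3 was 1.75-fold above control 1 and at 0.727 of control 2, with 21.9% and 34.9% of genes as far. Dlx3b was 1.37-fold above control 1 and at 0.719 of control 2, with 38.3% and 33.8% of genes as far, and dlx4b was 1.53-fold above control 1 and at 0.935 of control 2. Tfap2a and gata3 were close to control 1, at 1.09- and 1.02-fold, and at 0.887 and 0.785 of control 2. In the same library pax8, a gene that requires Foxi1 in the OEPD, was 15.6-fold lower, and pax2a, a paired box gene of the OEPD, 7.56-fold lower. The reporter also marks the nephric anlagen, and their marker hnf1bb was 42.2-fold lower. Other OEPD markers differed in extent and direction. Eya1, six1b, sox9a and fgf24 were at 51.4, 27.5, 26.8 and 5.78 CPM in control 3. They were at 111, 38.0, 39.7 and 48.6 CPM in control 1 and 193, 67.8, 68.6 and 40.7 CPM in control 2. Sox3 was higher, at 339 CPM in control 3 against 29.3 and 48.6 CPM in controls 1 and 2. Gata1a, the erythroid paralog of gata3, had 336 CPM in control 1, 298 in control 2 and 8.88 in control 3, where gata3 was at 80.4 CPM. Tfap2c lay above both other controls, 4.22-fold over control 1 and 1.76-fold over control 2, and 7.09% and 17.5% of genes differed as far.

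**Figure D4:**
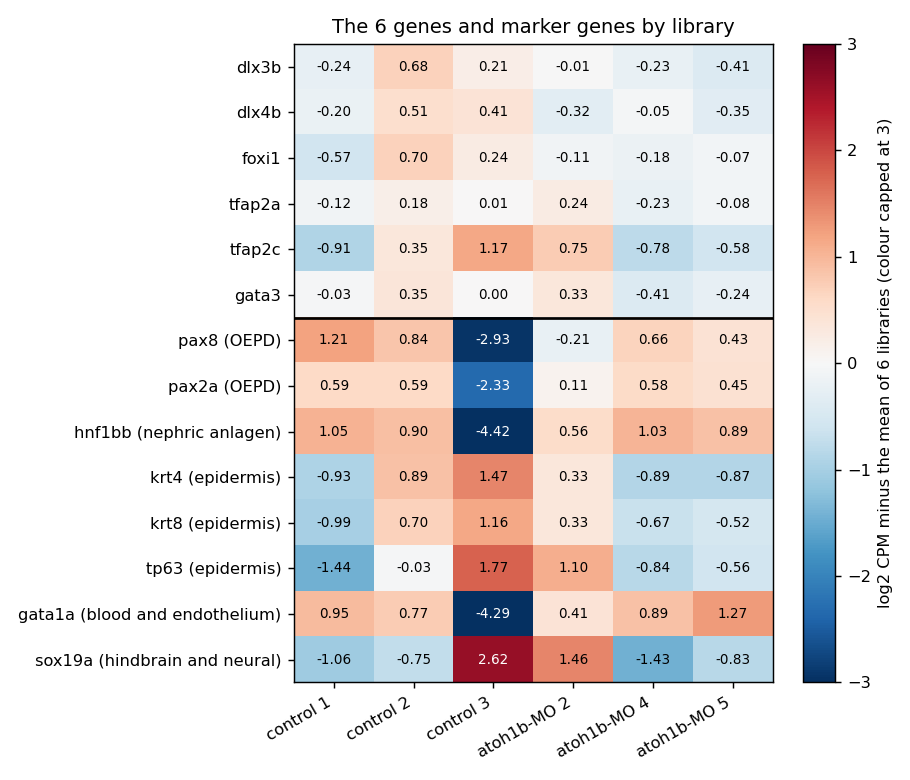
Log2 CPM of the 6 genes (upper rows) and of marker genes (lower rows) in each library, each minus its own mean over the 6 libraries, with colour capped at 3. In control 3 the values of dlx3b, dlx4b, foxi1, tfap2a and gata3 lie between 0.00 and 0.41, where pax8 is at -2.93 and hnf1bb at -4.42. Of the OEPD markers only pax8 and pax2a are shown. Tfap2c is highest in control 3 and atoh1b-MO 2, as tp63 and sox19a are.

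The level of tfap2c moved with markers of the epidermis, the tissue in which AP-2 factors are known to act, but also with markers of other tissues. Tp63, a transcription factor of the basal epidermis, had 14.5, 38.5 and 134 CPM in the controls and 84.0, 22.0 and 26.6 CPM in atoh1b-MO. The 6 libraries had the same order for tp63 and for tfap2c, from control 3 and atoh1b-MO 2 down to control 1. Krt8, another keratin of the surface, was at 251, 811 and 1119 CPM in the controls and 629, 314 and 349 CPM in atoh1b-MO, which placed control 2, control 3 and atoh1b-MO 2 above the others. Sox19a, a neural SoxB1 gene, was at 506 CPM in control 3 and 226 CPM in atoh1b-MO 2 and at 30.5 to 49.0 CPM elsewhere. Hindbrain egr2b, notochord shha, muscle actc1b and ionocyte gcm2 were likewise highest in control 3, at 76.4, 43.7, 40.3 and 9.17 CPM. For these genes atoh1b-MO 2 came next, at 32.7, 20.6, 8.07 and 6.74 CPM. Hoxb1a, myf5, tbx6, msgn1 and tbxta of the same lists did not have this order. Neural crest, another tissue of tfap2a and tfap2c, had summed marker levels of 50.0 to 90.8 CPM in the controls and 50.4 to 65.9 CPM in atoh1b-MO. Sox10 made up most of that sum, snai1b was at 21.8 CPM in control 3, 10.9 CPM in atoh1b-MO 2 and 5.10 to 6.46 CPM elsewhere, and foxd3 was at 0 counts in all 6 libraries. Whether reads of foxd3 could be counted at all was not tested. No marker of these lists was called between the groups, beside 0.598% and 0% of all tested genes with 5 and 6 libraries. The part of cell content in the level of tfap2c was not tested.

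The other members of the families were scarce in these cells except for gata1a, gata2a and gata5. Of the dlx genes listed, dlx5a had the highest mean level at 5.25 RPKM, followed by dlx2a at 2.17, dlx4a at 1.19 and dlx2b at 0.946, below the 11.1 RPKM of dlx4b. Dlx5a, known from the otic and olfactory placodes, was at 2.33, 5.36 and 19.7 CPM in the controls and 7.68, 1.17 and 4.78 CPM in atoh1b-MO, and so was highest in control 3, where dlx3b and dlx4b were not. Foxi3a and foxi3b, regulators of epidermal ionocytes, had 4.19 and 3.37 RPKM, and both were highest in control 3, at 16.6 and 12.7 CPM. Tfap2b was at 1.33 RPKM and tfap2e at 0.616. Gata1a at 129 RPKM and gata2a at 56.7 RPKM, the erythroid and the vascular and ectodermal paralogs, were above the 26.8 RPKM of gata3, and gata5 at 19.4 RPKM was below it. Gata6 at 2.63 RPKM, gata4 at 1.26 RPKM and gata2b at 0.0314 RPKM were scarce too. No tested paralog was called with 5 or with 6 libraries, among 5 dlx, 3 foxi, 2 tfap2 and 5 gata genes, beside 0.598% and 0% of all tested genes. The medians of their log2 fold changes with 5 libraries were 0.24, -0.07, -0.69 and 0.44, and with 6 libraries -0.97, -0.64, -0.32 and 0.78. With 5 libraries gata6 (1.49), gata4 (0.97), gata2a (-0.27) and dlx2b (-1.03) had an unadjusted edgeR p below 0.05, beside 11.2% of all tested genes. With 6 libraries gata6 and gata4 did, beside 5.82%.

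Regulators that act with or after the competence factors in the OEPD were described from lists. Of 18 placodal progenitor regulators 0 were called in either comparison by edgeR, 9 had an unadjusted p below 0.05 with 5 libraries (11.2% of all tested genes) and 1 with 6 (5.82%), and the median log2 fold change was -0.68 with 5 libraries, where 13 estimates were below 0, and -0.54 with 6. By level pax2a led the list at 108 RPKM, followed by pax8 at 71.4, the SoxB1 gene sox3 at 58.1 and the Iroquois gene irx1b at 47.8. Pax8 had a log2 fold change of -0.69 (SE 0.23, edgeR adjusted p = 0.327) with 5 libraries and -0.16 with 6. Sox9b, a SoxE gene of the otic placode chosen here after its values were seen, was highest in control 2 like dlx3b and foxi1 but lowest in control 3, at 183, 342 and 114 CPM in the controls and 127, 119 and 119 CPM in atoh1b-MO.

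Of 9 regulators of the neural plate border and the non-neural ectoderm, 0 were called by edgeR in either comparison, and 1 and 0 had an unadjusted p below 0.05 with 5 and 6 libraries, beside 11.2% and 5.82% of all tested genes. Their medians were -0.11 and -0.49. The most abundant were klf17, a Krüppel-like factor, at 179.9 RPKM, the Bmp-induced repressor vox at 77.0, the homeobox gene msx1b at 28.1 and prdm1a, a border regulator, at 19.6. Klf17 stood at 356, 323 and 41.9 CPM in the controls and 241, 346 and 447 CPM in atoh1b-MO, and hence was low in control 3 as the blood and nephric genes were.

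Bmp signals set up the domain in which foxi1, tfap2a, tfap2c and gata3 are expressed, and Fgf signals act on it. Of 13 Bmp pathway genes 1 was called with 5 libraries: id1, a direct Bmp target, fell from 679 and 647 CPM in controls 1 and 2 to 463, 391 and 453 CPM, a log2 fold change of -0.60 (SE 0.09, edgeR adjusted p = 0.0462). Of 12 Fgf ligands and targets 1 was called: spry4, a feedback inhibitor, fell from 112 and 97.0 CPM to 73.1, 70.9 and 67.6 CPM, a log2 fold change of -0.56 (SE 0.10, edgeR adjusted p = 0.0808). In all, 0.147% of tested genes were called lower. With 6 libraries neither was called (edgeR adjusted p = 0.690 and 0.876), and neither was any other gene. Control 3 was at 898 CPM for id1, above controls 1 and 2, and the log2 fold change of id1 was then -0.76. For spry4 control 3 was at 53.5 CPM, below every atoh1b-MO library, and the log2 fold change was then -0.31. List medians were -0.12 and -0.36 with 5 libraries and -0.06 and -0.17 with 6. An unadjusted edgeR p below 0.05 was reached by 1 Bmp and 8 Fgf genes with 5 libraries, beside 11.2% of all tested genes. With 6 libraries it was reached by 1 gene of each list, beside 5.82%.

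The study examined a set of genes downstream of Dlx3b/4b and a set with a pattern like that of atoh1b. Both came from its comparison of Dlx3b/4b-depleted embryos, which is not analysed here, and genes of both were also examined in these libraries, so that their direction is not independent evidence. Of 13 tested genes of the first set 0 were called by edgeR with 5 libraries (6 with an unadjusted p below 0.05) and 0 of 12 with 6 libraries (1 below 0.05), beside the same 11.2% and 5.82% of all tested genes. Their medians were -0.61 and -0.22. Among the 4 most abundant, zgc:194210, robo4 and stc2a were highest in control 2, as sox9b was: zgc:194210 was at 94.1, 186 and 22.8 CPM in the controls and at 76.6, 102 and 101 CPM in atoh1b-MO. Robo4, a Robo family receptor gene, was at 52.9, 109 and 56.3 CPM and at 44.2, 48.7 and 47.9 CPM, and stc2a, a stanniocalcin gene, at 38.0, 76.3 and 11.2 CPM and at 20.5, 35.2 and 28.3 CPM. Control 2 was thus the library with most dlx3b and dlx4b RNA and also with most RNA of these genes. This was not particular to the set. Eya1, six1b and tbx2b, from the placodal list, were also highest in control 2, at 193, 67.8 and 127 CPM. Within the set irx4b, agr2 and klhl14 were highest in atoh1b-MO 4 and rsph9 in atoh1b-MO 5. For klhl14 the margin was small, at 21.4 CPM in atoh1b-MO 4 against 21.1 CPM in control 2. Not all of the set had negative estimates: with 5 libraries agr2 was at 1.05, irx4b at 0.50 and rsph9 at 0.25 on the log2 scale, and none was called. For ptchd3a, fam20cb and irx4b the study reported no change after Atoh1b depletion, by sequencing or by in situ hybridization in atoh1b mutants.

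Of 7 genes with the atoh1b-like pattern cdr2l was called lower with 5 libraries, with 22.1 CPM in control 1 and 37.0 CPM in control 2 against 8.85, 8.75 and 11.9 CPM in atoh1b-MO, a log2 fold change of -1.58 (SE 0.25, edgeR adjusted p = 0.0545). With 6 libraries 0 of 7 were called and cdr2l had an edgeR adjusted p of 0.731. The medians were -0.83 and -0.65. Over all tested genes 0.598% were called with 5 libraries and 0% with 6. Of the 7 genes, 6 had an unadjusted edgeR p below 0.05 with 5 libraries and 2 with 6, beside 11.2% and 5.82% of all tested genes. For these libraries the study reported foxj1b, mns1, ulk1a, cdr2l, has3, si:dkey-222f2.1 and zgc:158291 as lower, by DESeq2 with a clutch factor. Cxcl14 and gfi1ab showed only a trend there. In situ hybridization in atoh1b mutants showed a loss or strong reduction of these genes. The fit here used edgeR without a clutch factor, so the numbers of calls are not comparable. The competence factors had medians of -0.28 with 5 libraries and -0.39 with 6, and 0 of 6 were called. These medians lay closer to those of all genes than the medians of the atoh1b-like set did, a difference that was not tested. Genes of that set were reported lower in these same libraries, so its lower medians are not independent evidence.

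**Figure D5:**
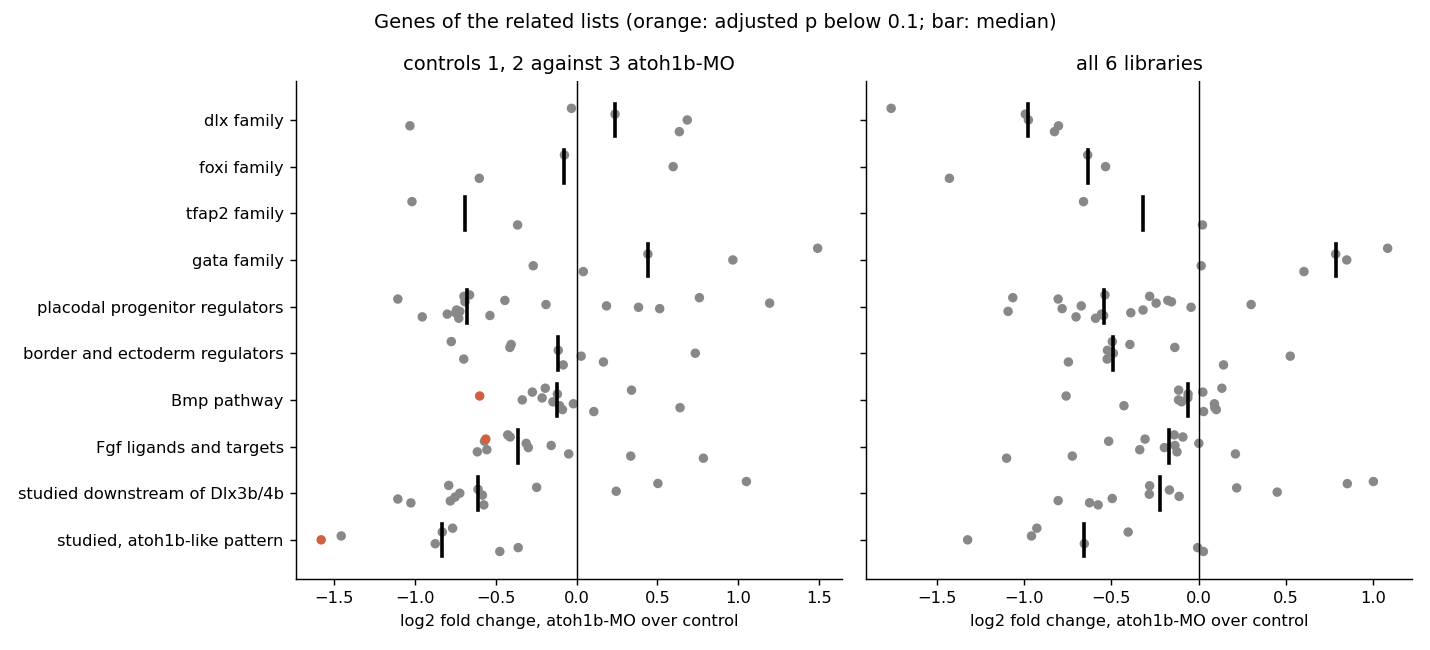
Log2 fold change of atoh1b-MO over control for each tested gene of the related lists (points; orange, edgeR adjusted p below 0.1; bar, median), with 5 libraries on the left and 6 on the right. With 5 libraries id1, spry4 and cdr2l are called, and with 6 libraries no gene of any list is.

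Likeness of pattern was measured as the root mean square difference between centred log2 CPM over the 6 libraries, in which 0 means the same pattern. Among the 6 genes, tfap2a and gata3 were closest at 0.13, followed by dlx3b and dlx4b at 0.19 and dlx3b and foxi1 at 0.20, and tfap2c was 0.63 to 0.69 from each of the others. Dlx4b and foxi1 differed by 0.24. So few libraries leave many genes with like patterns. Within 0.2 lay 54 of 12043 genes for dlx3b, 52 for dlx4b, 26 for foxi1, 31 for tfap2c, 224 for gata3 and 2653 or 22.0% for the nearly even tfap2a.

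The nearest genes to dlx3b were rbbp8l (0.07) and tm9sf5 (0.10), and those to dlx4b were zgc:158482 (0.11) and FUCA1 (0.12), with symbols as the annotation gives them. Rbbp8l was at 5.92, 9.99 and 7.29 CPM in the controls and 6.78, 5.71 and 4.65 CPM in atoh1b-MO, the shape of dlx3b at a lower level. Foxi1 was nearest to TMEM30B (0.10) and si:zfos-323e3.4 (0.12), and TMEM30B was likewise lowest in control 1 among the controls, at 9.72, 19.5 and 14.2 CPM against 12.8, 11.2 and 12.1 CPM. Tfap2c was nearest to TAGLN (0.10) and si:dkey-157l19.2 (0.11). TAGLN stood at 63.1, 162 and 331 CPM in the controls and at 226, 73.8 and 88.7 CPM in atoh1b-MO, the same order of libraries as tfap2c. The nearest to tfap2a were LRRC28 (0.05) and MAP3K21 (0.06), and those to gata3 were ESYT2 and cryzl1 (0.11 each).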

How the data were processed

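RNA of sorted pax8:DsRed-positive cells was sequenced in 3 control and 3 atoh1b-MO samples. The authors deposited a table of raw counts per gene, made with featureCounts 1.5.3 on the GRCz10 build per the submitters' processing notes. The study's methods name a newer build and counter version and another library kit, whereas gene IDs and positions in the table are those of the older build, which is used here. Whether strand was used in counting is not given in the sources used here. The table held 32266 genes and 92 spike-in entries with 0 counts.

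Counts were tested with edgeR 4.0.16 (glmQLFit and glmQLFTest, TMM scaling, filterByExpr, Benjamini-Hochberg over all genes tested, threshold 0.1), the false discovery rate of 10% being that of the study. The study dismissed a diverging control that it did not name; control 3, which diverged in these data, was taken to be that library and left out of the main comparison. Its clutch factor was not used because the labels give none. DESeq2 1.42.0, limma 3.58.1 (voom with sample weights), other scaling and filters, a replicate term and leaving out each library were alternatives. Paralog ratios were tested by exact permutation (scipy 1.17.1). A floor of 3 counts corresponds to 0.0807 to 0.124 CPM, far below every level of the 6 genes.

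The 6 genes and all lists were chosen with earlier results of these data known. Named genes were the 6, the called members of each list or otherwise up to 4 of highest RPKM, and the 2 nearest in pattern to each of the 6. Of 128 list symbols 88 matched the gene name table, 33 matched without their copy letter plus the chromosome, and 7 did not match. Genes named besides these were chosen after their values were seen. No sequences are shown.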

Additional observations from a re-analysis of the deposited data

How the results depend on the processing

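Over 150 refits of the 6 genes under alternatives, none was called, and adjusted p-values ran from 0.164 (tfap2c with the replicate term, log2 fold change 0.31) to 1. The sign turned in 13 of them. Apart from single libraries left out, these were tfap2c at -0.041 under limma voom and tfap2a at 0.0077 with the replicate term, both with 5 libraries, and tfap2a at 0.029 with library size alone and 6 libraries. Leaving out 1 library gave, with 5 libraries, -0.88 to 0.032 for dlx3b, -0.74 to -0.039 for dlx4b, -0.81 to 0.44 for foxi1, -0.19 to 0.098 for tfap2a, -0.52 to 0.87 for tfap2c and -0.49 to -0.048 for gata3. With 6 libraries the ranges were -0.66 to -0.20, -0.69 to -0.36, -0.60 to 0.00075, -0.17 to 0.063, -1.09 to 0.12 and -0.43 to -0.041. The log2 paralog ratio differences ranged from -0.18 to 0.069 and -0.092 to 0.15 for the dlx pair, and from -0.62 to 0.34 and -0.14 to 0.84 for the tfap2 pair. With 0.5 added to each count they changed by less than the spread between replicates.

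Over all genes tested, 110 were called with 5 libraries, 488 when every gene with a count was tested, 690 by DESeq2 and 13 to 260 without 1 library. With 6 libraries it was 0, and 112 with DESeq2, 21 with limma voom and 0 to 110 without 1 library (110 without control 3). The cause was not tested.

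No paired analysis was possible because the groups share only the number 2. A replicate block for the samples numbered 2 gave 713 called genes with 5 libraries and 0 with 6, and called none of the 6 genes. The number alone shows no pairing.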
